A study of Mus musculus with 16 samples.

Results

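F5, F8, F3, Vwf, Thbd, Procr, Tfpi, Plat and Pros1 are 9 genes of blood clotting and of the breakdown of clots, followed here in brain endothelial cells (bECs). They were chosen by symbol, with earlier results of these data known. Each has 1 row among the 37003 genes of the count table, and all 9 were among the 31085 genes that passed the filter on low counts. RNA was sequenced in 16 libraries of mouse bECs, 4 for each of the 4 combinations of genotype (CTRL or YT-iKO) and surgery (sham or MCAo). YT-iKO mice carried Pdgfb-iCreER-eGFP as Tg/+ with Yap fl/fl and Taz fl/fl, so that tamoxifen deleted both genes where the Pdgfb promoter drives Cre, which is mainly in endothelium. CTRL littermates had the same floxed alleles and the same tamoxifen but no transgene, so that no group lacks the floxed alleles or the drug, and Cre and deletion cannot be told apart. All mice were adult, both sexes were used, and each library is a pool of several mice. In MCAo the middle cerebral artery was closed with a filament for 30 minutes and then opened again, whereas in sham the carotid artery was laid open and left unblocked. Cells were taken 72 hours later. After MCAo the territory of the closed artery was dissected, as was the matching area of the other hemisphere, and whether a library holds cells of both sides is not given in the sources used here. They were enriched with CD31 beads and sorted as living, CD45-negative and CD31-positive.

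Clotting starts when tissue factor (F3) meets factor VII, and it is amplified when factors VIII (F8) and V (F5) speed up the enzymes that activate factor X and then make thrombin. Von Willebrand factor (Vwf) catches platelets, carries factor VIII and is stored with P-selectin in the Weibel-Palade bodies of endothelial cells. Resting endothelium works against clotting: thrombomodulin (Thbd) and the endothelial protein C receptor (Procr) let thrombin activate protein C, protein S (Pros1) helps activated protein C to destroy factors V and VIII, and tissue factor pathway inhibitor (Tfpi) blocks the first step. Clots are dissolved by plasmin, which tissue plasminogen activator (tPA, encoded by Plat) makes from plasminogen. YAP and TAZ are transcriptional coactivators of the Hippo pathway that bind DNA mainly through TEAD factors.

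Because the deleted coactivators act through TEAD, the start regions of the 9 genes were searched for its core letters. RefSeq promoters on GRCm38.p6, each 250 bases before to 50 bases after a start site, were at hand for 6 of the genes in 7 promoters; those are F5, F8, F3, Procr, Tfpi with 2 start sites, and Pros1. Vwf, Thbd and Plat had none. The TEAD letters GGAATG were sought on both strands and occurred in the promoters of F5 and F8, at 1 place each, and in 14.7% of all 32851 promoters. The stretch of F5, the 1 gene of the 9 that is called between genotypes below, is the 250 bases before its start site at chr1:164151585-164151834 on the + strand, and that of F8 is 30 bases around its match at chrX:75380054-75380083 on the − strand, which lie inside the annotated F8 gene. Both run 5′ to 3′, with capitals on CATTCC, the reverse complement of GGAATG.
F5: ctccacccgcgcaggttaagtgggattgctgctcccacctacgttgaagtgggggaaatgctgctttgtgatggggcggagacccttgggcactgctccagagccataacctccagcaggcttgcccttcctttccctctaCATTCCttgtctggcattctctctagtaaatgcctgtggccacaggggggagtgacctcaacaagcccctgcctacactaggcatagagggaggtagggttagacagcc
F8: tggaagcttttaCATTCCatgcagactcca
The match began 109 bases before the start site in F5 and 30 bases before it in F8. The AP-1 letters TGANTCA occurred at 2 places in F3 and 1 in Procr, against 7.81% of all promoters, and the STAT letters TTCNNNGAA at 1 place in Pros1, against 8.30%. A match is a string of letters and was not tested for binding.

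F5 (ENSMUSG00000026579) lies at chr1:164151838-164220277 on the + strand of GRCm38 and Vwf (ENSMUSG00000001930) at chr6:125546774-125686679 on the + strand, with 56 blocks of exons. F8 (ENSMUSG00000031196) is at chrX:75172715-75382615 on the − strand and F3 (ENSMUSG00000028128) at chr3:121723537-121735048 on the + strand. Chromosome 2 holds 3 of the anticoagulant genes, Thbd (ENSMUSG00000074743) at chr2:148404466-148408188 on the − strand with 1 exon, Procr (ENSMUSG00000027611) at chr2:155751117-155755471 on the + strand and Tfpi (ENSMUSG00000027082) at chr2:84432855-84476775 on the − strand. Pros1 (ENSMUSG00000022912) is at chr16:62854307-62929346 and Plat (ENSMUSG00000031538) at chr8:22757727-22782844, both on the + strand. All 9 are annotated as protein-coding, with 2031 to 16064 bases of exon, the shortest in Procr and the longest in Vwf, and values are counts over whole genes.

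Each library held 11418262 to 23074547 counts on genes. Levels are given in CPM, counts relative to the library total after scaling by TMM factors over all genes tested, or as CPM per kilobase of exon where genes are compared with each other. Of the 12 endothelial markers all were measured, with summed levels of 10192 to 21383 CPM, and Yap1 was 111 to 112 CPM in CTRL sham and 38.6 to 59.2 CPM in YT-iKO sham, Wwtr1 (Taz) 253 to 276 and 45.0 to 95.9 CPM. After MCAo Yap1 was 80.5 to 133 CPM in CTRL and 37.1 to 63.0 CPM in YT-iKO, Wwtr1 235 to 438 and 60.7 to 136 CPM, so that both targeted genes separated the genotypes in all libraries. Libraries differed in an even background of reads, measured on 1301 olfactory, vomeronasal and taste receptor genes, from 0.0293 to 0.402 CPM per kilobase. It was highest in replicates 2 and 3 of CTRL MCAo, replicate 3 of YT-iKO sham and replicates 2 and 3 of YT-iKO MCAo, and these 5 libraries alone had scaling factors above 1.1. Results on the 9 genes were therefore also computed with factors from only those 9132 genes whose mean reached 10 CPM and, chosen after the factors were seen, without those 5 libraries. The background would supply 6.85% of all F5 counts, 35.1% of F8 counts and 45.2% of F3 counts, and under 10% for 7 of the 9 genes.

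**Figure D1:**
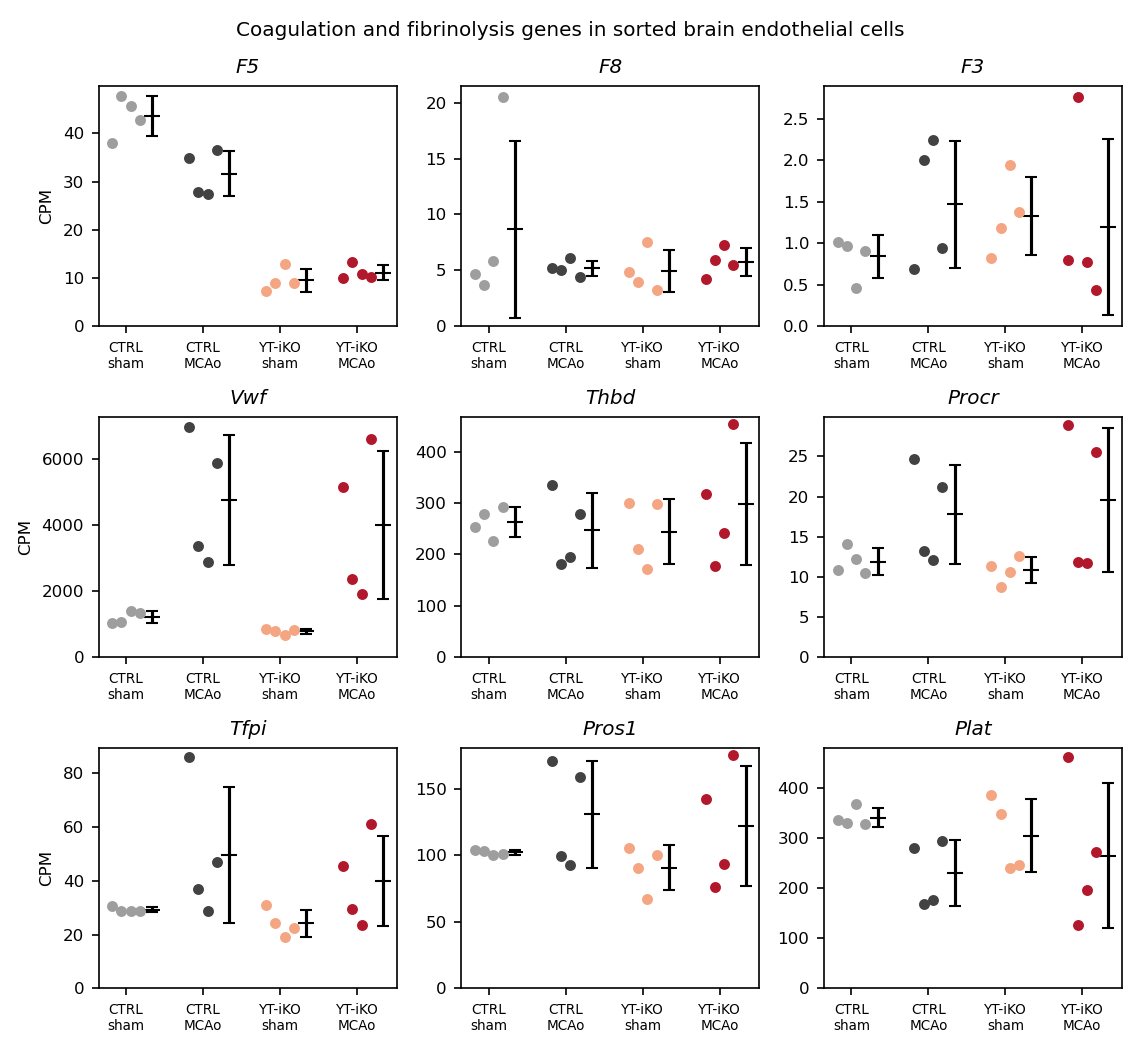
Level of each of the 9 genes in each library, in CPM on linear axes that start at 0. Points are replicates 1 to 4 from left to right in each group, and bars are the mean ± SD. F5 is lower in all 8 YT-iKO libraries than in the 8 CTRL libraries, and Vwf is higher in all 8 MCAo libraries than in the 8 sham libraries.

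The genotype comparisons ask which clotting genes of bECs depend on YAP and TAZ. F5, which encodes the cofactor of the enzyme complex that makes thrombin, fell in YT-iKO bECs after sham and after MCAo, and none of the other 8 genes passed the test in either state. In CTRL sham F5 was at 38.1, 47.8, 45.6 and 42.8 CPM, and in YT-iKO sham at 7.42, 8.93, 13 and 8.96 CPM. The lowest CTRL library lay above the highest YT-iKO library by a wide margin, and means were 43.6 ± 4.21 and 9.58 ± 2.40 CPM (SD, n = 4), a 4.55-fold lower level. After MCAo the CTRL libraries were at 34.8, 27.8, 27.5 and 36.6 CPM and the YT-iKO libraries at 10.1, 13.4, 10.9 and 10.2 CPM. These groups did not overlap either, and the level was 2.84-fold lower at means of 31.6 ± 4.72 and 11.1 ± 1.55 CPM (SD, n = 4). F5 was counted 403 to 839 times in each CTRL library and 136 to 214 times in each YT-iKO library.

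By edgeR's quasi-likelihood test with Benjamini-Hochberg adjustment over 31085 genes and a threshold of 0.1, the log2 fold change of F5 was −2.19 ± 0.20 (SE, adjusted p = 8.89e-06) after sham and −1.51 ± 0.20 (adjusted p = 0.00137) after MCAo. It had the smallest p of all genes tested after sham and ranked 3 after MCAo. Lower calls were rare in these comparisons, at 0.0901% of genes after sham and 0.0676% after MCAo, and 1 of the 9 genes was called in each. Since the 9 were chosen with earlier results of these data known, these shares do not test them as a set. Groups that did not overlap in CPM, in either direction, were found for 3.85% of genes after sham and for 2 of the 9, F5 and Vwf, and for 0.981% of genes after MCAo and for 1 of the 9, F5. The call for F5 was kept with the factors from abundant genes, where lower calls made up 0.338% and 0.454% of genes, at −1.98 ± 0.27 (edgeR adjusted p = 0.00137) and −1.43 ± 0.26 (edgeR adjusted p = 0.0187). On that scale 4.49% of genes after sham and 3.22% after MCAo had groups that did not overlap, and of the 9 these were again F5 and Vwf after sham and F5 after MCAo. The F5 call was also kept without the 5 libraries of high background, where lower calls made up 0.360% and 0.196%, at −2.37 and −1.82. Even background made up 2.64% to 3.74% of F5 counts in CTRL sham and 12.9% to 22.9% in YT-iKO sham. With it taken off, under factors from abundant genes, F5 was 4.64-fold lower after sham and 3.03-fold lower after MCAo. Under those factors the ratio of the YT-iKO to the CTRL mean went from 0.257 to 0.216 after sham and from 0.376 to 0.330 after MCAo.

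The antisense noncoding gene Gm16548 overlaps 262 bases of the exons of F5, 3.53% of their length, and how the counting treated strand is not given in the sources used here. Gm16548 itself had 0 to 8 counts per library, against at least 136 for F5. Platelets also hold factor V. Summed levels of 9 platelet markers were 12.4 to 14.6 CPM in CTRL sham and 13.3 to 28.1 CPM in YT-iKO sham, with none called and the defining Pf4 and Ppbp at no more than 1.38 and 1.19 CPM in any library. Capillary endothelial markers summed to 9534 to 9715 CPM in CTRL sham and 5547 to 9101 CPM in YT-iKO sham. Astrocyte markers summed to 99.0 to 112 CPM and 63.6 to 83.9 CPM. Neither list overlapped between genotypes after sham, and both did after MCAo. Of the capillary markers Slc16a1 was called lower in YT-iKO in both states. The part of these markers in the F5 result was not tested. In sorted bulk cells, fewer cells of a type and less RNA per cell cannot be told apart.

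**Figure D2:**
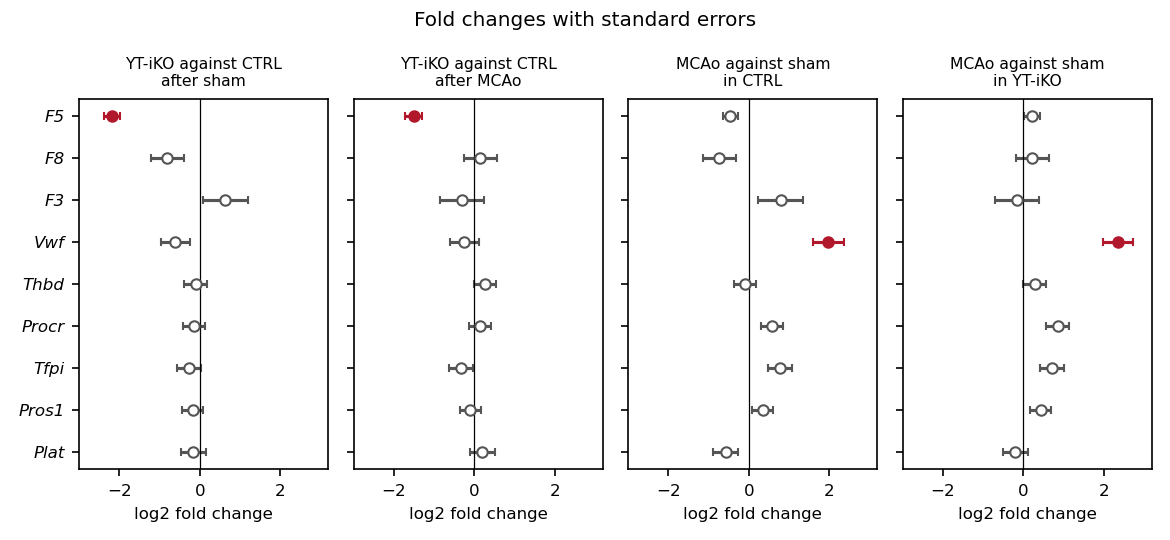
Log2 fold changes of the 9 genes in the 4 comparisons of groups, with bars of 1 SE from edgeR; red filled marks passed an adjusted p under 0.1. F5 passed in both genotype comparisons, at −2.19 and −1.51, and Vwf in both comparisons of MCAo with sham, at 1.98 and 2.35.

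The other 3 genes that favour clotting gave no call between genotypes. F8, the cofactor that Vwf carries, was low in all groups, at 3.65 to 5.83 CPM in 3 CTRL sham libraries and 20.5 CPM in the last, replicate 4, which held 315 counts. The YT-iKO sham libraries were at 4.87, 3.99, 7.58 and 3.29 CPM and overlapped those of CTRL sham. The log2 fold change of −0.81 ± 0.41 after sham rested on that 1 library and was 0.07 without it, and after MCAo it was 0.15 ± 0.41 at CTRL levels of 4.41 to 6.10 CPM and YT-iKO levels of 4.26 to 7.25 CPM. The F8 promoter shown above, with the same TEAD letters as that of F5, therefore belongs to a gene for which no genotype difference was detectable at 50 to 117 counts per YT-iKO library, of which 5.29% to 66.6% would come from the background.

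F3, the trigger of clotting, was at 0.466 to 1.02 CPM in CTRL sham, 0.819 to 1.94 CPM in YT-iKO sham, 0.690 to 2.24 CPM in CTRL MCAo and 0.436 to 2.76 CPM in YT-iKO MCAo. These are 6 to 44 counts per library, of which the even background would give 17.0% to 112%, so that differences in F3 could not be resolved. Its log2 fold changes between genotypes were 0.64 ± 0.56 after sham and −0.30 ± 0.55 after MCAo. Vwf was at 1046, 1056, 1392 and 1334 CPM in CTRL sham and at 869, 785, 679 and 824 CPM in YT-iKO sham. The groups did not overlap and the YT-iKO mean was 1.53-fold lower, but the difference of −0.61 ± 0.36 did not pass (edgeR adjusted p = 0.99), nor did that with factors from abundant genes, −0.45 ± 0.20 (edgeR adjusted p = 0.81). Vwf is strongest in veins, and the summed level of 6 venous markers was 267 to 309 CPM in CTRL sham and 182 to 256 CPM in YT-iKO sham, which did not overlap. Of these 1 was called lower, the amino acid transporter Slc38a5 (−1.60 ± 0.32, edgeR adjusted p = 0.0537). It was at 68.4 to 100.2 CPM in CTRL sham and 21.9 to 40.7 CPM in YT-iKO sham. The others were not called, at −0.25 ± 0.43 for Lcn2, −0.19 ± 0.24 for Vcam1, 0.02 ± 0.29 for Icam1, 0.05 ± 0.33 for Nr2f2 and 0.21 ± 0.54 for Ackr1. The lower sum was therefore not shared by all 6 markers. The part of the venous markers in this difference was not tested.

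The anticoagulant genes and Plat did not differ detectably between genotypes. After sham, Thbd averaged 263 ± 29.4 CPM in CTRL and 244 ± 63.7 CPM in YT-iKO, Procr 11.9 ± 1.62 and 10.8 ± 1.65 CPM, Tfpi 29.2 ± 0.885 and 24.1 ± 4.93 CPM, and Pros1 102 ± 1.86 and 90.5 ± 16.8 CPM (SD, n = 4). Their log2 fold changes ran from −0.27 ± 0.30 for Tfpi to −0.10 ± 0.28 for Thbd, and that of Plat was −0.16 ± 0.31. With factors from abundant genes those of Thbd and Procr were both 0.03, with the sign turned. After MCAo the 5 values ran from −0.32 ± 0.30 for Tfpi to 0.27 ± 0.28 for Thbd. For each of these genes the 2 genotypes overlapped in both states.

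The comparisons of MCAo with sham ask what stroke does to the same genes. Vwf rose in both genotypes and was the only one of the 9 that passed. In CTRL MCAo it was at 6965, 3361, 2882 and 5896 CPM, against 1046 to 1392 CPM in CTRL sham, and in YT-iKO MCAo at 5155, 2359, 1924 and 6614 CPM, against 679 to 869 CPM in YT-iKO sham. The lowest MCAo library of each genotype was above the highest sham library. Within both MCAo groups replicates 1 and 4 were well above replicates 2 and 3, which are the MCAo libraries of high background. Means rose 3.96-fold to 4776 ± 1969 CPM in CTRL and 5.08-fold to 4013 ± 2249 CPM in YT-iKO (SD, n = 4). The log2 fold changes were 1.98 ± 0.38 (edgeR adjusted p = 0.0281) and 2.35 ± 0.38 (edgeR adjusted p = 0.00526), among 0.183% and 0.277% of genes called higher. In raw counts Vwf went from 0.10% to 0.127% of a library in CTRL sham to 0.354% to 0.517% in CTRL MCAo, where it was between the 9th and 16th most counted gene. In YT-iKO it went from 0.0753% to 0.0917% to 0.237% to 0.493%.

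The Vwf call in CTRL was lost without CTRL sham replicate 1, 2 or 3, at log2 fold changes of 1.92, 1.93 and 2.06 and edgeR adjusted p of 0.207, 0.201 and 0.128. That in YT-iKO was lost where only the 2 groups compared were fitted, at 2.21 (edgeR adjusted p = 0.167). With factors from abundant genes the values were 2.02 ± 0.21 (edgeR adjusted p = 9.84e-05) and 2.18 ± 0.21 (edgeR adjusted p = 3.95e-05). On that scale the MCAo replicates lay closer together. Vwf was at 5405, 3919, 3635 and 5351 CPM in CTRL MCAo and 4532, 3182, 2372 and 4851 CPM in YT-iKO MCAo. The summed level of the 6 venous markers was 271 to 677 CPM in CTRL MCAo and 245 to 606 CPM in YT-iKO MCAo, and overlapped that of sham in both genotypes. Of the 6, Ackr1 was called higher after MCAo in both genotypes (3.8 ± 0.55 and 3.77 ± 0.54) and Lcn2 in YT-iKO (2.77 ± 0.45). The 9 platelet markers summed to 12.4 to 14.6 CPM in CTRL sham and 17.8 to 22.9 CPM in CTRL MCAo, which did not overlap, and to 13.3 to 28.1 and 18.3 to 27.1 CPM in YT-iKO, which did. None of them was called. Itga2b, the highest of them in CPM, was at 4.02 to 5.07 CPM in CTRL sham and 6.71 to 12.3 CPM in CTRL MCAo, while the defining Pf4 and Ppbp were at no more than 1.38 and 1.19 CPM. In CTRL the arterial markers went from 677 to 719.8 CPM after sham to 359 to 660.4 CPM after MCAo. Fibroblast markers went from 19.7 to 22.9 CPM to 31.6 to 39.2 CPM, and oligodendrocyte markers from 20.9 to 27.5 CPM to 27.7 to 33.1 CPM. These lists did not overlap in CTRL and overlapped in YT-iKO. Of the arterial markers 1 was called lower in CTRL MCAo and 1 higher in YT-iKO MCAo. The part of any of these lists in the Vwf result was not tested.

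**Figure D3:**
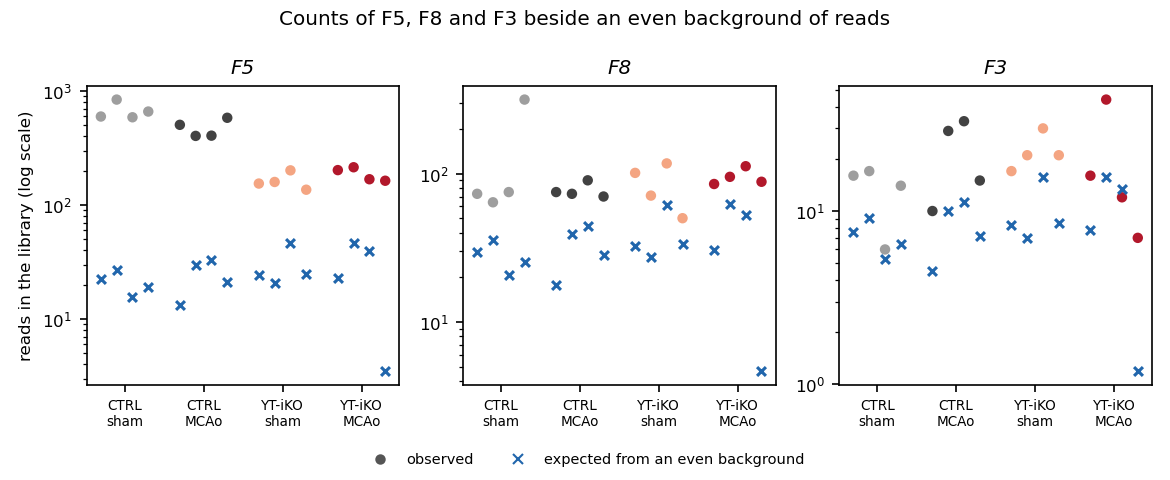
Reads of F5, F8 and F3 in each library on a log axis (circles), beside those expected from the even background over the exons of the gene (crosses). F5 stands above the crosses by a wide margin in CTRL and comes nearer to them in YT-iKO, whereas F8 and F3 lie close to them in most libraries.

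Among the other genes that favour clotting, F5 was lower after MCAo in each CTRL library than in any CTRL sham library, 27.5 to 36.6 against 38.1 to 47.8 CPM, but its log2 fold change of −0.46 ± 0.19 did not pass (edgeR unadjusted p = 0.0244, adjusted p = 1). In YT-iKO it was 0.22 ± 0.20 with overlapping groups. Groups not overlapping in CPM were found for 4.14% of all genes in CTRL and 1.28% in YT-iKO, and for 3 of the 9 in CTRL (Vwf higher, F5 and Plat lower) and 1 of the 9 in YT-iKO (Vwf). F8 gave −0.74 ± 0.41 in CTRL, 0.14 without CTRL sham replicate 4, and 0.22 ± 0.41 in YT-iKO. F3 gave 0.79 ± 0.56 and −0.15 ± 0.55.

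Of the anticoagulant genes, Procr, Tfpi and Pros1 gave differences between MCAo and sham that did not pass here but passed under some alternative scalings or choices of libraries, and Thbd gave none that passed. Procr was at 10.9, 14.1, 12.2 and 10.5 CPM in CTRL sham and 24.7, 13.2, 12.1 and 21.2 CPM in CTRL MCAo. In YT-iKO it was at 11.4, 8.71, 10.6 and 12.6 CPM after sham and 28.9, 11.9, 11.8 and 25.6 CPM after MCAo. Replicates 1 and 4 of both MCAo groups were above all sham libraries, while replicates 2 and 3, those of high background, overlapped them. The log2 fold changes were 0.58 ± 0.28 in CTRL and 0.85 ± 0.28 in YT-iKO, neither of which passed (edgeR adjusted p = 1 and 0.624). The overlap depended on the scaling. With factors from abundant genes Procr was at 15.2 to 19.3 CPM in CTRL MCAo and 9.98 to 13.2 CPM in CTRL sham. In YT-iKO it was then at 14.5 to 25.4 CPM after MCAo and 8.08 to 14.2 CPM after sham.

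Tfpi was at 30.5, 28.6, 28.8 and 28.8 CPM in CTRL sham and 86.0, 37.0, 28.8 and 46.8 CPM in CTRL MCAo. In YT-iKO it was at 30.8, 24.4, 19.0 and 22.3 CPM after sham and 45.6, 29.6, 23.4 and 61.0 CPM after MCAo. Its highest MCAo library was replicate 1 in CTRL and replicate 4 in YT-iKO, and both pairs of groups overlapped. The log2 fold changes were 0.77 ± 0.30 and 0.72 ± 0.30 (edgeR adjusted p = 1 in both, unadjusted p = 0.0175 and 0.0237). Where only the 2 CTRL groups were fitted, with scaling by TMM as before, the CTRL value of 0.76 passed (edgeR adjusted p = 0.0494). Pros1 was at 100.4 to 104 CPM in CTRL sham and 92.6 to 171 CPM in CTRL MCAo, and at 66.9 to 105 and 76.4 to 175 CPM in YT-iKO. Its log2 fold changes of 0.35 ± 0.26 and 0.43 ± 0.26 did not pass.

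With factors from abundant genes, higher calls were made for 1.35% of all genes in CTRL and 1.23% in YT-iKO, and for 3 and 4 of the 9 genes. Besides Vwf these were Tfpi at 0.79 ± 0.16 in CTRL (edgeR adjusted p = 0.0163) and 0.63 ± 0.16 in YT-iKO (edgeR adjusted p = 0.0696), Pros1 at 0.42 ± 0.09 (edgeR adjusted p = 0.0269) and 0.34 ± 0.09 (edgeR adjusted p = 0.094), and Procr in YT-iKO at 0.72 ± 0.19 (edgeR adjusted p = 0.094), while Procr in CTRL did not pass (edgeR adjusted p = 0.165). On that scale groups that did not overlap, in either direction, were found for 7.33% of all genes in CTRL and for 6 of the 9 (Vwf, Procr, Tfpi and Pros1 higher, F5 and Plat lower), and for 3.18% of genes in YT-iKO and 3 of the 9 (Vwf, Procr and Tfpi higher). With the even background taken off, the YT-iKO groups of Tfpi overlapped again. Without the 5 libraries of high background, higher calls made up 2.46% and 5.16% of genes and 4 of the 9 in each genotype, Vwf, Procr, Tfpi and Pros1. Procr was then 0.89 (edgeR adjusted p = 0.00855) in CTRL and 1.26 (edgeR adjusted p = 4.18e-04) in YT-iKO. The MCAo libraries left out there are those with the lower levels of Vwf, Procr, Tfpi and Pros1 in CPM, so that these 4 calls share that choice of libraries.

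Thbd, the thrombin receptor that starts this pathway, was at 253, 279, 226 and 293 CPM in CTRL sham and 334, 181, 194 and 279 CPM in CTRL MCAo, with the sham libraries inside the range of the MCAo libraries. In YT-iKO it was at 172 to 299 CPM after sham and 177 to 453 CPM after MCAo. Its log2 fold changes were −0.09 ± 0.28 and 0.28 ± 0.28, and it passed under no alternative.

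Plat, the activator of plasminogen, was at 335, 329, 368 and 328 CPM in CTRL sham and 279, 169, 177 and 293 CPM in CTRL MCAo. All 4 CTRL MCAo libraries were below the sham libraries, at a mean of 229 ± 65.5 against 340.1 ± 19.0 CPM (SD, n = 4), but the log2 fold change of −0.57 ± 0.31 did not pass, nor did −0.49 ± 0.19 with factors from abundant genes (edgeR adjusted p = 0.428). In YT-iKO Plat was at 239.6 to 385 CPM after sham and 127 to 462 CPM after MCAo, and its log2 fold change was −0.20 ± 0.31.

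Whether stroke acted differently on the 2 genotypes was tested as the difference between their MCAo responses. No gene passed that test (0% of the 31085 genes, 116 at an unadjusted p under 0.05, and 0 genes by DESeq2), and none of the 9 did. F5 had the smallest p among the 9, with a difference of 0.68 ± 0.27 (edgeR unadjusted p = 0.0211, adjusted p = 1). The difference for Vwf was 0.36 ± 0.51, and those of the other 7 genes ran from −0.94 ± 0.78 for F3 to 0.96 ± 0.58 for F8. With these errors the test does not show that the 2 genotypes responded alike.

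Compared per kilobase of exon, Vwf and Thbd were the most abundant of the 9 genes in CTRL sham, at 75.1 and 70.6 CPM per kilobase, with overlapping libraries. Plat followed at 54.5 and Pros1 at 25.0 CPM per kilobase, each apart from its neighbours. Procr at 5.87, F5 at 5.86 and Tfpi at 5.35 CPM per kilobase did not differ beyond their spread, and F8 and F3 came last at 0.873 and 0.333. In CTRL MCAo Vwf stood alone at 297 CPM per kilobase over Thbd at 66.3, Plat and Pros1 overlapped at 36.8 and 32.0, Tfpi and Procr at 9.09 and 8.76, and F5 came next at 4.26. In YT-iKO sham the leading 3, Thbd at 65.7, Vwf at 49.1 and Plat at 48.8 CPM per kilobase, overlapped, Pros1 was at 22.1, Procr and Tfpi at 5.33 and 4.42, and F5 stood below them at 1.29. In YT-iKO MCAo the ranges of Vwf at 249.8, Thbd at 79.9, Plat at 42.3 and Pros1 at 29.7 CPM per kilobase overlapped in turn. Pros1 did not overlap Procr, the next gene, and F5 was at 1.5. Overlap here is between ranges over libraries. Within every library, Plat was above Pros1 in CTRL MCAo, and Thbd was above Vwf and Plat in YT-iKO sham. In every YT-iKO MCAo library the order was Vwf, Thbd, Plat and Pros1. F8 and F3 lay last, between 0.472 and 0.581 CPM per kilobase and overlapping, in those 3 groups.

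The other genes of clotting were described by fixed lists. Of a list of 15 genes, coagulation factors, contact factors and fibrinogen chains, most of them made by the liver, together with Tbxas1, the synthase of thromboxane, none passed in any comparison, and for 7 of them at least 50% of the counts would come from the even background. Its median log2 fold changes were 0.42 between genotypes after sham and 0.01 after MCAo, 0.38 in CTRL MCAo and 0.00 in YT-iKO MCAo, where those of all genes were 0.11, 0.03, 0.07 and −0.02. Under factors from abundant genes they were 0.71, 0.16, 0.61 and 0.09, where those of all genes were 0.30, 0.08, 0.21 and −0.02. The 2 with the highest mean CPM, not divided by length here or for the lists that follow, were Tbxas1 at 11 to 13.9 CPM in the group means, and F7, the partner of tissue factor, at 4.16 ± 0.731 CPM in CTRL sham, 8.03 ± 2.72 in YT-iKO sham, 3.16 ± 0.496 in CTRL MCAo and 6.09 ± 1.48 in YT-iKO MCAo. The F7 groups of the 2 genotypes did not overlap in either state, but the differences of 0.95 ± 0.28 and 0.94 ± 0.28 did not pass (edgeR adjusted p = 0.975 and 0.979).

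Of 15 anticoagulant and antiplatelet genes none passed either, with medians of 0.09, −0.09, 0.25 and 0.02 in the order of both genotype comparisons, CTRL MCAo and YT-iKO MCAo, beside the same medians of all genes, and 0.28, −0.03, 0.38 and 0.02 with factors from abundant genes. Nos3, the endothelial nitric oxide synthase, and Entpd1, which removes the platelet agonists ATP and ADP, had the highest mean CPM, Nos3 at 277 to 326 CPM in the group means. Entpd1 averaged 195 ± 12.2 and 292 ± 116 CPM in CTRL sham and MCAo and 168 ± 24.8 and 367 ± 171 CPM in YT-iKO, with log2 fold changes of 0.58 ± 0.30 and 1.13 ± 0.30 (edgeR adjusted p = 1 and 0.239) that passed with factors from abundant genes (edgeR adjusted p = 0.0391 and 0.00108). The 13 genes of the plasminogen system that are reported here had medians of 0.31 in CTRL MCAo and 0.34 in YT-iKO MCAo, and 0.44 and 0.35 with factors from abundant genes. The highest mean CPM were those of Anxa2, a cell-surface receptor for plasminogen and tPA, and Lrp1, which clears tPA. Anxa2 was at 108 to 133 CPM in CTRL sham and 67.7 to 82.5 CPM in YT-iKO sham. These groups did not overlap, as for 3.85% of all genes, but the difference was not called, and the genotypes overlapped after MCAo. From sham to MCAo in YT-iKO, Anxa2 averaged 75.7 ± 6.31 and 130.4 ± 55.7 CPM. Its log2 fold change of 0.78 ± 0.26 did not pass (edgeR adjusted p = 0.677) and that with factors from abundant genes did (0.66 ± 0.12, edgeR adjusted p = 0.00881), and in CTRL it was 0.31 ± 0.26 and passed on neither scale.

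None of the 4 thrombin and protease receptors passed. F2r, the main thrombin receptor, was at 4.72, 8.15, 12 and 27.7 CPM in CTRL sham and 3.32 to 9.30 CPM in YT-iKO sham. The groups overlapped, and the difference of −1.05 ± 0.44 was −0.38 without CTRL sham replicate 4, the library with the high F8 value. F2rl1 averaged 1.82 to 3.13 CPM. None of the 10 genes tested for secretion and processing of clotting proteins passed, among them those with the highest mean CPM, the protein disulfide isomerases Pdia3 at 179 to 249 CPM and P4hb at 152 to 227 CPM in the group means. Factor V and factor VIII leave the cell through the cargo receptor that Lman1 and Mcfd2 encode, and neither gene was called.

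Of 13 genes of Weibel-Palade bodies, the granules that hold Vwf, 3 passed. After sham 2 of the 13 were called lower in YT-iKO, beside 0.0901% of all genes, and 1 was called higher after MCAo in each genotype, beside 0.183% of genes in CTRL and 0.277% in YT-iKO. Selp (P-selectin) rose with MCAo, from 1.42 to 2.73 CPM in CTRL sham to 84.6, 14.3, 9.16 and 29.8 CPM, and from 1.46 to 3.76 CPM in YT-iKO sham to 60.4, 16.1, 10 and 46.3 CPM. Its log2 fold changes were 4.09 ± 0.64 (edgeR adjusted p = 0.00382) and 3.69 ± 0.62 (edgeR adjusted p = 0.00683). With 1 library left out Selp ran from 3.17, without CTRL MCAo replicate 1, to 4.41 in CTRL and from 3.23 to 3.99 in YT-iKO, and passed each time. Even background would supply 27.0% to 63.8% of its counts in CTRL sham and 28.5% to 47.2% in YT-iKO sham, and with it taken off the means rose 25.6-fold and 16.9-fold, against 17.1-fold and 12.8-fold in CPM. Angpt2 and Edn1, secreted signals for vessel growth and constriction, fell in YT-iKO after sham. Angpt2 went from 28.0, 34.7, 43.9 and 36.8 CPM to 15.1, 15.1, 13.6 and 11.3 CPM (−1.38 ± 0.23, edgeR adjusted p = 0.015) and Edn1 from 114, 97.3, 102 and 103 CPM to 38.3, 34.3, 22.2 and 31.6 CPM (−1.72 ± 0.33, edgeR adjusted p = 0.0391). Both pairs of groups stood apart. The Angpt2 call was lost without YT-iKO sham replicate 4 (edgeR adjusted p = 0.133), and that of Edn1 without any 1 of the 4 CTRL sham libraries or YT-iKO sham replicates 3 or 4 (edgeR adjusted p up to 0.233). After MCAo their differences of −0.69 ± 0.23 and −1.09 ± 0.32 passed only with some alternatives. The study also reads Angpt2 and Edn1 in these libraries as genes that depend on YAP and TAZ, so their direction here is not independent evidence. The study's lists of differentially expressed genes from these libraries also hold F5, Slc16a1 and Slc38a5 in both genotype contrasts. They hold Vwf after MCAo in CTRL, Selp and Ackr1 after MCAo in both genotypes, and Lcn2 after MCAo in YT-iKO. For those genes too the directions here are not independent evidence. With factors from abundant genes, Angpt2 and Edn1 were called lower in YT-iKO after sham and after MCAo, beside 0.338% and 0.454% of all genes. On that scale 1 of the 13 was called higher in CTRL MCAo, Selp, beside 1.35% of genes, and 5 in YT-iKO MCAo, beside 1.23%, which were Selp, Edn1 (1.07 ± 0.20, edgeR adjusted p = 0.00955), Angpt2 (0.55 ± 0.14, edgeR adjusted p = 0.0882), and Rab27a and Vamp8 of the machinery of granule release. On the scale of all genes tested the MCAo values of Edn1 and Angpt2 in YT-iKO were 1.16 ± 0.32 and 0.65 ± 0.23 and did not pass (edgeR adjusted p = 0.290 and 0.802). Stx3, with Edn1 the gene of this list with the highest mean CPM, averaged 75.3 to 96.6 CPM and was not called.

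**Figure D4:**
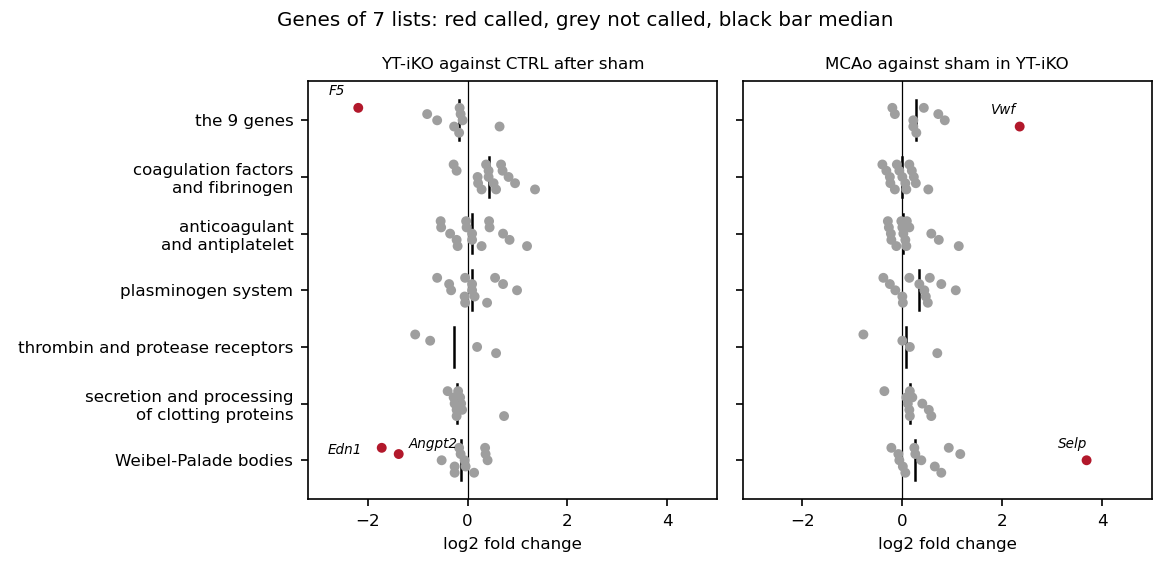
Log2 fold changes of the genes of 7 lists between genotypes after sham and between MCAo and sham in YT-iKO; each point is a gene, red points passed an adjusted p under 0.1 by edgeR, and black bars are medians. The red points are F5, Edn1 and Angpt2 at −2.19, −1.72 and −1.38 in the first panel, and Selp and Vwf at 3.69 and 2.35 in the second.

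Patterns like those of F5 and Vwf were sought among 9132 genes by Pearson's r of log2(CPM + 1) over the 16 libraries, as a description, since libraries share groups and scaling. F5 was most like Spaar at r = 0.952, Amotl2 at 0.921, Tlcd3b at 0.897, Ddah1 at 0.885 and Hrct1 at 0.878. Spaar averaged 62.4, 45.1, 19.8 and 18.8 CPM in the sham and MCAo groups of CTRL and then of YT-iKO, and Amotl2, an angiomotin that binds YAP, 238, 202, 58.6 and 52.3 CPM. As with F5, levels were lower in both YT-iKO groups, which the choice by correlation with F5 made likely. Each of the genes most like F5 is also in both genotype lists of the study, drawn from these same libraries. Vwf was most like Litaf at r = 0.986, Socs3 at 0.984, Tmem176b at 0.977, Fn1 at 0.974 and Lgmn at 0.974. Socs3, a feedback inhibitor of cytokine signalling, averaged 15.6, 83.6, 6.45 and 86.2 CPM in the same order, and Fn1, which encodes fibronectin, 3894, 7031, 2744 and 6274 CPM. In these genes, as in Vwf, both MCAo groups were above both sham groups, which the choice by correlation with Vwf made likely.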

How the data were processed

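RNA of sorted bECs was sequenced after a SMART-Seq Ultra Low Input kit, which carries no molecular identifiers. STAR 2.7.8a placed the paired-end reads on GRCm38 with GENCODE M12, and the authors deposited whole-number counts for each gene, not normalized; the counting program and its use of strand are not given in the sources used here. Genes were matched by identifier to GENCODE M21 on GRCm38 for positions and exon lengths (36861 of 37003 found). All deposited genes reach 5 counts in 3 or more libraries.

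In R 4.3.3, edgeR 4.0.16 (TMM, filterByExpr with a minimum count of 10 and total of 15, quasi-likelihood test, all 4 groups in 1 model, common dispersion 0.16) compared the groups in 5 contrasts. Benjamini-Hochberg adjustment covered 31085 genes, at a threshold of 0.1. P values measure the spread between pools of mice. Scaling factors were 0.7431 to 1.403, and 0.9389 to 1.04 from abundant genes. Even background was the count density on 1301 autosomal protein-coding receptor genes, times exon length; levels with it taken off use the factors from abundant genes. SE is the fold change over the square root of edgeR's F. The script was tested on simulated data. Alternatives were RLE factors, factors from abundant genes, DESeq2 1.42.0, no filter, CPM above 1 in at least 4 libraries (25536 genes), only the 2 groups compared, a replicate block, each library left out and, added after seeing the data, only the 11 libraries with a factor below 1.1.

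Genes named are the 9, each list gene called in any comparison, the 2 of each list with the highest mean CPM, the 5 most like F5 and Vwf, and Yap1 and Wwtr1 as a check. Gm16548, Pf4, Ppbp, Slc38a5, Ackr1, Lcn2, Vcam1, Icam1, Nr2f2, Slc16a1, Lman1, Mcfd2, Rab27a, Vamp8, Itga2b and Arhgap20 were named after their values were seen. The genes and lists were chosen with earlier results of these data known. 1 gene of the plasminogen list is not reported here, so the counts and medians of that list leave it out and do not cover the whole list.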

Additional observations from a re-analysis of the deposited data

Results flagged for a closer look

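In 48 groups of 4 libraries, of the 9 genes and of Selp, Angpt2 and Edn1, a library whose gap to its nearest neighbour exceeded Dixon's 95% critical value for a share of the range was found in 4 groups. Chance alone gives about 1 in 20 groups. F8 had 20.5 CPM in CTRL sham replicate 4, against 3.65 to 5.83 CPM in the other 3 libraries. F3 had 2.76 CPM in YT-iKO MCAo replicate 2, against 0.436 to 0.802 CPM. Tfpi had 30.5 CPM in CTRL sham replicate 1, against 28.6 to 28.8 CPM, and Plat 368 CPM in CTRL sham replicate 3, against 328 to 335 CPM. The last 2 groups are narrow, and these libraries lie within the range of other groups.

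On the scale of all genes tested, every CTRL MCAo library of F5 was below the CTRL sham mean of 43.6 CPM and every YT-iKO MCAo library was above the YT-iKO sham mean of 9.58 CPM. With factors from abundant genes the CTRL libraries were again all below, but the YT-iKO libraries, at 8.91, 18.1, 13.4 and 7.45 CPM, lay 2 above and 2 below a sham mean of 10.5 CPM, and with the background taken off they were again 2 above and 2 below. The difference was 0.68 on the log2 scale, and edgeR's test of the difference did not pass (unadjusted p = 0.0211, adjusted p = 1). It ran from 0.56 to 0.84 with 1 library left out.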

How the results depend on the processing

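The lower level of F5 in YT-iKO was called under every alternative run, in both states (edgeR or DESeq2 adjusted p at most 0.0361). Of the fold changes of single genes followed, 1152 kept direction and call under an alternative, 17 gained a call, 11 lost one and 35 turned sign, all of the last in values that were not called.

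With factors from abundant genes, 115, 181, 554 and 534 genes were called, in the order genotype after sham, genotype after MCAo, CTRL MCAo and YT-iKO MCAo, and 3 and 4 of the 9 in the last pair; the main counts were 30, 22, 67 and 99. The median of all genes moved from 0.11 to 0.30 after sham and from 0.07 to 0.21 in CTRL MCAo. DESeq2 called 81, 92, 222 and 267. The stricter filter called 121 in CTRL MCAo. Fits of only the 2 groups compared called 120 genes after sham, 509 in CTRL MCAo with 2 of the 9, Vwf and Tfpi, and 17 in YT-iKO MCAo with 0 of the 9. Without the 5 libraries of high background, 121, 94, 829 and 1946 genes were called, 4 of the 9 in each MCAo comparison, and 1 gene in the difference of responses, Arhgap20, named after its value was seen. Leaving out 1 library at a time gave 15 to 40, 15 to 40, 25 to 155 and 33 to 205 genes, and 0 to 1 of the 9 in CTRL MCAo. The cause of these shifts was not tested.

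Whether replicate numbers pair libraries is not given by the labels, and the libraries did not meet the criterion that every same-numbered pair correlates above 0.1: 24 pairs with 1 number had a median correlation of deviations of 0.155, 13 of them above 0.1, against −0.085 and 26 for 72 other pairs, and 6 of 16 libraries correlated best with their own number. A replicate block called 40, 34, 119 and 132 genes and changed no call of the 9; it gave Edn1 a call after MCAo.

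Values that turned sign were, with factors from abundant genes, Thbd and Procr after sham (both 0.035) and Pros1 in the difference of responses (−0.084, and −0.002 without a filter); with the replicate block, Tfpi in the difference (0.029); and without the 5 libraries, F3 (−0.103) and Thbd (0.159) in CTRL MCAo, Thbd after sham (0.033), Plat in YT-iKO MCAo (0.118) and Pros1 in the difference (−0.015). With 1 library left out, F8 ran from −1.09 to 0.069 after sham and −0.996 to 0.139 in CTRL MCAo, F3 from −0.989 to 0.12 in YT-iKO MCAo, and Thbd from −0.216 to 0.04 after sham, −0.219 to 0.033 in CTRL MCAo and −0.009 to 0.427 between genotypes after MCAo. Between genotypes after MCAo, Procr ran from −0.116 to 0.315, Plat from −0.211 to 0.418 and Pros1 from −0.332 to 0.041. In the difference of responses, Tfpi ran from −0.32 to 0.196, Plat from −0.051 to 0.575 and Pros1 from −0.158 to 0.209. With the background taken off, F8 moved from 5.40 to 3.02 CPM in CTRL MCAo and from 6.18 to 3.43 CPM in YT-iKO MCAo, and F3 from 0.788 to 0.360 CPM in CTRL sham, each by more than 1 SD. F8 had 50 to 315 counts per library and F3 had 6 to 44, and the background would supply 35.1% and 45.2% of all their counts. Whether depth limits their results was not tested.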
